A study of Citrus reticulata with 36 samples.

Results

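In ovules of ponkan (Citrus reticulata, a loose-skinned mandarin), 200 gene identifiers were moderately more abundant in the integument than in the nucellus, and none of them overlapped between the tissues. They were chosen from the deposited read counts, scaled so that every library has the same total (CPM). For a chosen identifier the lowest of the 18 integument libraries exceeded the highest of the 18 nucellus libraries. The mean integument CPM over the mean nucellus CPM, with 0.05 added to each, was at least 4 and under 16. Of 128861 identifiers in the table, 790 were separated in this way with the integument higher, and 379 of them had a ratio in that range. The 200 with the highest mean integument CPM are described here, and the other 179 are not. The choice rests on the tissue difference and on the level, so both are given as descriptions with no test. The separation had to hold over every cultivar and stage, so an identifier with a large cultivar or stage difference tends to overlap between the tissues and to be left out, which limits the differences that the chosen ones can show.

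The integument is the outer, maternal layer of the ovule and develops into the seed coat. The nucellus is the maternal tissue inside it, in which the embryo sac lies. In citrus the nucellus is also known as the source of asexual nucellar embryos. A moderate preference leaves a transcript readable in both tissues, so its level can be followed across cultivars and stages in each.

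The study is on seed abortion and used the cultivar "Huagan No.4", here HG, beside the cultivar "Egan No.1", here EG. Integument and nucellus cells were cut from ovules by laser capture microdissection at 18, 28 and 32 days after pollination (DAP), and their RNA was amplified before paired-end sequencing. The 12 groups were HG integument, EG integument, HG nucellus and EG nucellus at each of the 3 stages, with 3 libraries each, stated to be biological replicates. The labels give no treatment, and all plants were ponkan, and no group is a wild type or an isogenic control. The labels do not say which tree, fruit or ovule gave which capture, so libraries of a group may share plants, and p-values over libraries are then too small. Stage is coded 1 to 3 in the table's columns, and the codes were taken as 18, 28 and 32 DAP in order of time, a reading that no label states.

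Library totals lay between 12687779 and 20947644 counts. EG nucellus 28 DAP replicate 1 stood apart from the other nucellus libraries: it had the fewest identifiers detected, 55947, and for 109 of the 200 identifiers it was the lowest of the 18 nucellus libraries. Nucellus values without it stand beside several of the results below. The identifiers carry no gene names, and no annotation was used here, so neither the labelled tissues could be checked against known marker genes nor a function given for any member.

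The 200 identifiers spanned a wide range of levels. Their mean integument level had a median of 22.2 CPM, with 262 CPM at the top and 10.8 CPM for the last one chosen, and the next identifier that met the same conditions stood at 10.7 CPM. In FPKM (fragments per kilobase and depth, which allows levels of different genes to be compared), the mean integument level ran from 2.27 to 206 with a median of 11.96, and the mean nucellus level had a median of 1.76. The ratio of integument to nucellus ran from 4.07 to 15.8, with a median of 7.32 and quartiles of 5.44 and 10.0. The separated identifiers just outside the limits had ratios of 3.99 and 16.3. The gap between the tissues was narrower than these means: the lowest integument CPM over the highest nucellus CPM had a median of 1.58 and a maximum of 3.51, was at least 2 for 60 members, and was under 1.5 for 84. Another 388 identifiers of at least the same integument level had a ratio of 4 to under 16 but overlapped between the tissues.

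The moderately preferring identifiers were readable in both tissues. The lowest count of any member in any integument library was 39. In nucellus libraries a member had no count in 13 cases, spread over 11 members, and 9 of those cases were in EG nucellus 28 DAP replicate 1. The length implied by counts and FPKM had a median of 2016 bases, close to the 2100 bases of the 17480 identifiers at or above the level of the lowest member. Among integument libraries the coefficient of variation had a median of 0.334 over members, against 0.274 over those 17480 identifiers. The 17480 share only a lowest integument level with the members, with no upper limit, and are not matched on nucellus level. Where identifiers at the members' integument level are named below, these 17480 are meant. The members' mean nucellus level had a median of 3.44 CPM. For nucellus the members are therefore set beside the 41243 identifiers whose mean nucellus level lies within the members' range of 0.806 to 39.0 CPM. Among nucellus libraries the coefficient was 0.489 over members, against 0.392 over those 41243, and 0.453 against 0.356 without EG nucellus 28 DAP replicate 1.

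c37997_g1 was the most abundant member on both scales. Its lowest, median and highest values were 131, 261 and 388 CPM in the 18 integument libraries, against 3.10, 42.7 and 61.6 CPM in the 18 nucellus libraries. On the length-corrected scale it averaged 206 FPKM in integument and 30.7 FPKM in nucellus, and c39706_g1 came next with 133 FPKM in integument and 10.9 FPKM in nucellus. c39706_g1 had 57.4, 109.9 and 351 CPM as its lowest, median and highest integument values, against 0.640, 12.3 and 19.2 CPM in nucellus. By CPM the second place went to c110416_g1, at 109, 152 and 269 CPM (lowest, median, highest) in integument, against 10.3, 18.0 and 37.8 CPM in nucellus. All 3 showed a gap of more than 2-fold between their lowest integument and their highest nucellus library.

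Members differed in how evenly they were expressed across the integument libraries. c53431_g1 was the most even, with 78.6, 101 and 132 CPM as its lowest, median and highest integument values and a coefficient of variation of 0.147. It was followed by c42944_g1, with 17.4, 22.8 and 31.9 CPM and a coefficient of 0.170. At the other end c91763_g1 varied 15.4-fold over the same libraries, from 3.31 to 51.0 CPM around a median of 12.5 CPM. Its highest values were 51.0 CPM in EG integument 32 DAP replicate 1 and 48.1 CPM in EG integument 28 DAP replicate 3, while the other libraries of those groups lay between 3.45 and 17.3 CPM. c102696_g1 varied 15.6-fold, between 2.31 and 36.0 CPM. Their nucellus values were at most 2.95 CPM for c91763_g1 and 2.08 CPM for c102696_g1, below all integument values as the choice requires of every member.

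**Figure D1:**
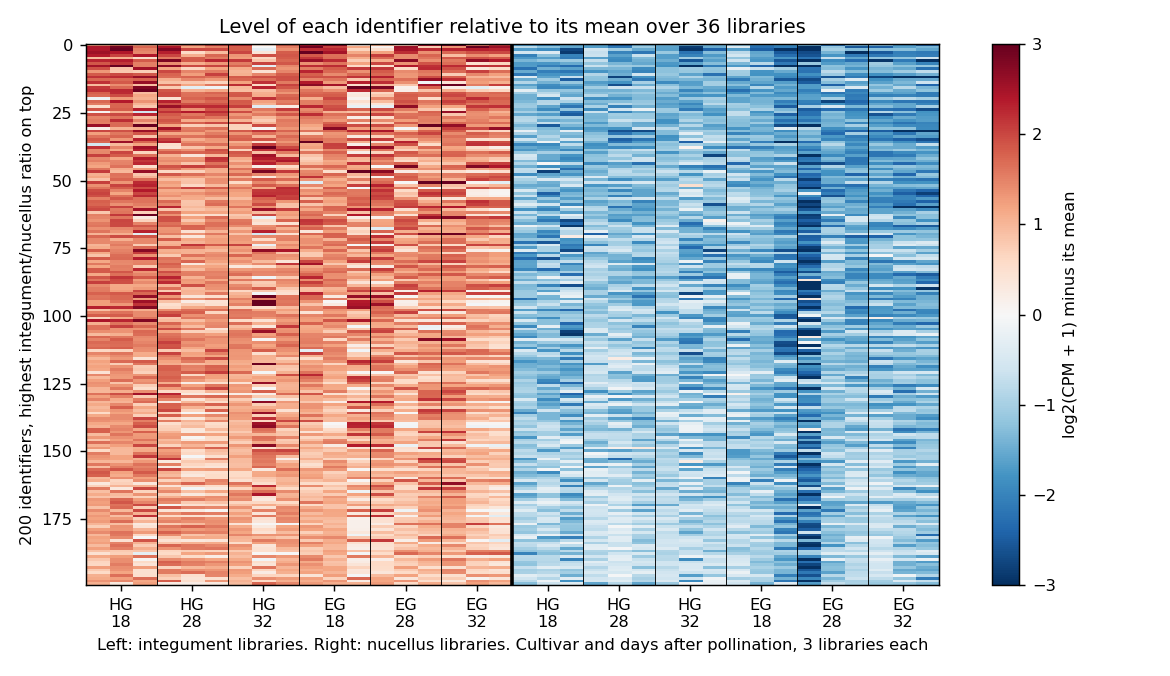
Level of each of the 200 identifiers (rows, highest integument to nucellus ratio on top) in each of the 36 libraries (columns, integument on the left and nucellus on the right, 3 libraries per cultivar and stage), as log2(CPM + 1) minus the identifier's mean over all libraries. Integument columns are almost wholly red and nucellus columns blue, as the choice requires, and EG nucellus 28 DAP replicate 1, where the members had a median of 4.28% of their own integument mean, is the darkest blue column.

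Together the 200 identifiers took 0.665% ± 0.0668 of the counts of an integument library (SD, n = 18), with a range of 0.565% to 0.769%, and 0.0921% ± 0.0177 of the counts of a nucellus library (SD, n = 18), with a range of 0.0478% to 0.116%. In HG integument the share was 0.738% ± 0.0303, 0.661% ± 0.0981 and 0.626% ± 0.0132 at 18, 28 and 32 DAP, against 0.651% ± 0.0521, 0.673% ± 0.0551 and 0.640% ± 0.0991 in EG integument (SD, n = 3 each). The 3 HG libraries of 32 DAP, between 0.615% and 0.641%, did not overlap those of 18 DAP, between 0.704% and 0.760%, whereas the EG stages overlapped. The HG separation held for shares of total counts only. The tests scaled libraries by TMM factors, of 0.898 for HG integument 32 DAP replicate 2 and 1.003 for HG integument 18 DAP replicate 1. With shares divided by these factors the HG stages overlapped as well. Captured tissue is a bulk sample, so fewer cells of a type and less RNA per cell cannot be told apart in such shares.

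In nucellus the share was 0.0963% ± 0.00567, 0.109% ± 0.0103 and 0.103% ± 0.00576 in HG at 18, 28 and 32 DAP, against 0.0870% ± 0.0248, 0.0738% ± 0.0226 and 0.0832% ± 0.00686 in EG (SD, n = 3 each). HG nucellus libraries lay between 0.0899% and 0.116%, and EG nucellus libraries between 0.0478% and 0.113%. The lowest EG value was that of the library that stood apart, and without it the EG libraries began at 0.0631%. At 28 and 32 DAP every HG nucellus library was above every EG nucellus library of its stage, and at 18 DAP the cultivars overlapped.

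**Figure D2:**
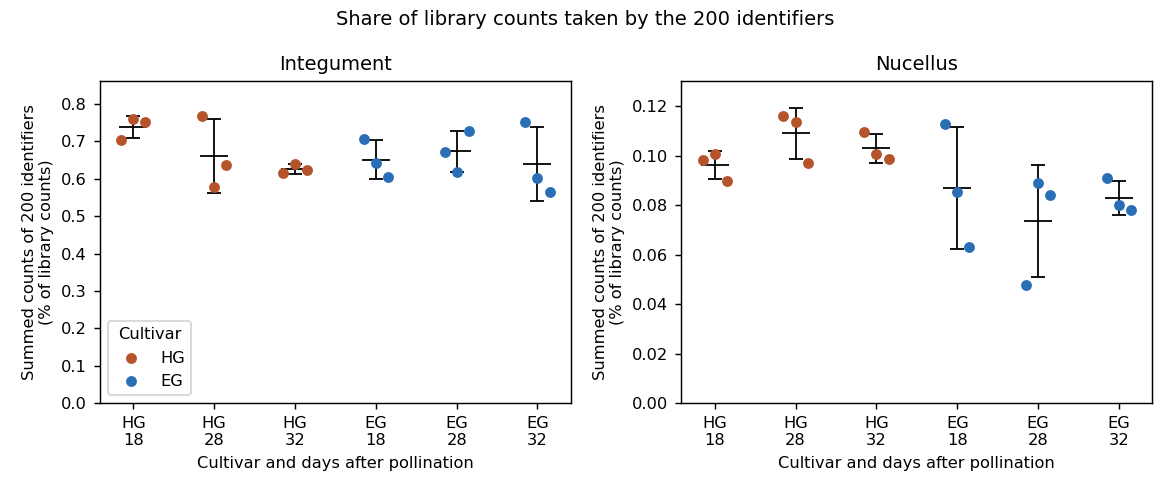
Share of a library's counts taken by the 200 identifiers, in percent, per library (points) with the mean and SD of each group of 3 (bars), for integument (left) and nucellus (right), by cultivar and days after pollination. The vertical scales differ between the panels: integument libraries lie between 0.565% and 0.769%, nucellus libraries between 0.0478% and 0.116%, and HG nucellus libraries lie above EG nucellus libraries at 28 and 32 DAP.

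The separation over all libraries fixes a preference for integument in every cultivar and stage, and its size is described here. All 200 identifiers had a group mean at least 2-fold higher in integument than in nucellus in each of the 6 cultivar and stage pairs, and 119 were at least 4-fold higher in all 6. The ratio stayed at 4 to under 16 in all 6 pairs for 52 members, and single ratios ran from 2.18 to 71.8. Leaving out EG nucellus 28 DAP replicate 1 gave 119 and 56 for the last 2 counts and a highest ratio of 56.1. The median ratio was 7.53, 6.19 and 6.43 in HG at 18, 28 and 32 DAP, against 7.46, 9.12 and 7.20 in EG. The EG value at 28 DAP was 7.63 without EG nucellus 28 DAP replicate 1. No member's ratio was called different between cultivars by edgeR's quasi-likelihood test on the change of the tissue difference (HG against EG), where 0% of all 57344 identifiers tested were called. At an unadjusted p under 0.05, 1 member had a larger and 19 a smaller tissue ratio in HG, against 1.3% and 1.56% of all identifiers. Without EG nucellus 28 DAP replicate 1 these were 2 and 23 members, against 1.15% and 2.19%. DESeq2 called 0 members and 0.00349% of all identifiers. The same test between 32 and 18 DAP also called 0 members with edgeR, against 0.00174% of all identifiers. There 11 were larger and 11 smaller at 32 DAP at an unadjusted p under 0.05, against 1.5% and 1.89%, and DESeq2 called 0, against 0.0506%. Same-numbered tissues were not paired in these tests, though they tended to deviate together, so differences may be missed. A paired fit is given in the last section.

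Stage was followed first in the integument, with a call at an adjusted p under 0.05 (Benjamini-Hochberg over all identifiers tested, edgeR) and both cultivars averaged. No member was called between any 2 stages. At 28 against 18 DAP 0 members and 0% of all identifiers were called. At an unadjusted p under 0.05, 15 members were higher and 6 lower at 28 DAP, against 4.57% and 5.01% of all identifiers, and DESeq2 called 0 members and 0.322% of all. At 32 against 28 DAP edgeR called 0 members and 0% of all identifiers. None was higher and 10 were lower at 32 DAP at an unadjusted p under 0.05, against 3.19% and 1.74%, and DESeq2 called 0 members and 0.112% of all. At 32 against 18 DAP edgeR called 0 members and 0.0279% of all identifiers, with 4 higher and 16 lower at 32 DAP at an unadjusted p under 0.05, against 4.45% and 5.03%. There DESeq2 called 2 members, both lower at 32 DAP, and 0.705% of all identifiers.

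The median log2 fold change of the members was 0.05 at 28 against 18 DAP, -0.19 at 32 against 28 DAP and -0.08 at 32 against 18 DAP, and the medians of all identifiers tested were 0.01, -0.02 and 0.01. At 32 against 28 DAP 51 members were above 0 and 149 below, and the quartiles were -0.34 and 0.01. Those above 0 made 25.5% of members, 47.1% of all identifiers and 29.2% of the 17480 at the members' integument level, whose median was -0.10. Scaled by library size alone the first of these medians turned to -0.07, while the median of all identifiers moved to -0.10. The highest of a member's 6 integument group means was a median of 1.79-fold above its lowest, and under 2-fold for 122 members. No such fold is given for other identifiers, so these values are a description only. In HG integument 83, 71 and 46 members had their highest group mean at 18, 28 and 32 DAP, against 67, 66 and 67 in EG integument, and 69 members had the same top stage in both cultivars. No share of other identifiers is given for that last count, so nothing is read from it. Among the 17480 identifiers at that integument level, 40.7%, 36.9% and 22.4% were highest at the 3 stages in HG and 36.8%, 20.1% and 43.1% in EG.

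In nucellus edgeR called 2 members between stages with all libraries kept, both downward. Without EG nucellus 28 DAP replicate 1 members were called in both directions, as given below. c44063_g1 was lower at 28 DAP than at 18 DAP, and c72553_g1 lower at 32 DAP than at 18 DAP. These were 1 member of 200 in each comparison. Of all identifiers 0.131% were called in either direction and 0.0575% downward at 28 against 18 DAP, and 0.0924% in either direction and 0.0471% downward at 32 against 18 DAP. At 32 against 28 DAP edgeR called 0 members and 0% of all identifiers. There 4 members were higher and 30 lower at 32 DAP at an unadjusted p under 0.05, against 3.99% and 5.18%, and DESeq2 called 3 members and 0.0778% of all.

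c44063_g1 had 0.939, 1.32 and 0.537 CPM in HG nucellus at 28 DAP, against 2.92, 6.31 and 3.25 CPM in HG nucellus at 18 DAP. In EG nucellus it had 0.0493, 0.160 and 0.635 CPM at 28 DAP, against 0.415, 2.23 and 3.67 CPM at 18 DAP. The stages did not overlap in HG and overlapped in EG, where the lowest value of 28 DAP was a single read in the library that stood apart. The log2 fold change was -2.50 (SE 0.48, edgeR, adjusted p = 0.0251), and ran from -3.08 to -2.02 over the alternatives. The call was lost without HG replicate 2 (adjusted p = 0.0748), HG replicate 3 (0.0657) or EG replicate 3 (0.112) of 18 DAP, and without HG replicate 2 (0.0667), HG replicate 3 (0.111) or EG replicate 2 (0.0525) of 28 DAP. At 32 DAP the identifier had 2.83, 4.52 and 3.16 CPM in HG nucellus and 1.00, 0.423 and 1.01 CPM in EG nucellus. Its integument values ran from 10.8 to 35.4 CPM over all stages.

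c72553_g1 had 8.26, 5.08 and 5.24 CPM in HG nucellus at 32 DAP, against 12.3, 24.2 and 17.3 CPM in HG nucellus at 18 DAP. In EG nucellus it had 6.78, 8.88 and 5.59 CPM at 32 DAP, against 23.1, 10.0 and 8.24 CPM at 18 DAP, so the stages overlapped in EG only. The log2 fold change was -1.24 (SE 0.23, edgeR, adjusted p = 0.0169). The integument showed the same order in HG, with 53.4, 25.4 and 47.3 CPM at 32 DAP against 103, 125 and 101 CPM at 18 DAP. In EG integument the values overlapped, with 67.3, 92.2 and 100.2 CPM at 32 DAP against 137, 73.1 and 71.0 CPM at 18 DAP. The nucellus call was lost without HG replicate 2 (adjusted p = 0.0605), HG replicate 3 (0.055) or EG replicate 1 (0.0767) of 18 DAP, and without HG replicate 2 (0.0636), HG replicate 3 (0.0646), EG replicate 1 (0.0532) or EG replicate 3 (0.0746) of 32 DAP. It was also lost with libraries scaled by size alone (0.0988).

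Over all 200 identifiers the nucellus stage differences had medians of 0.08, -0.06 and 0.02 (log2, 28 against 18, 32 against 28 and 32 against 18 DAP), against medians of 0.00, 0.01 and 0.01 over all identifiers. The first 2 medians changed sign when libraries were scaled by size alone, to -0.06 and 0.10, while all identifiers moved to -0.15 and 0.19. All 3 also changed sign with single libraries left out, between -0.01 and 0.14, between -0.16 and 0.07 and between -0.04 and 0.09. They were 0.14, -0.16 and 0.03 without EG nucellus 28 DAP replicate 1. At an unadjusted p under 0.05, 28 members were higher and 14 lower at 28 against 18 DAP, against 7.65% and 6.11% of all identifiers. Both directions together made 21% of members, 13.8% of all identifiers and 14.4% of those at the members' nucellus level, and DESeq2 called 11 members and 1.79% of all. At 32 against 18 DAP 13 were higher and 26 lower, against 4.43% and 4.19%. Together these were 19.5% of members, 8.62% of all identifiers and 8.21% at the members' nucellus level, and DESeq2 called 6 members and 0.573% of all. Without EG nucellus 28 DAP replicate 1 both directions made 27.5% of members and 13.8% of all identifiers at 28 against 18 DAP, and 22.5% and 10.5% at 32 against 18 DAP. edgeR then called 2 members higher and 2 lower at 28 against 18 DAP, and 0.389% of all identifiers. At 32 against 18 DAP it called 1 member higher and 4 lower, and 0.226% of all identifiers. The highest of a member's 6 nucellus group means was a median of 2.45-fold above the lowest, and 2.29-fold without that library, beside 1.79-fold in integument. The members' levels were lower in nucellus, and no such fold is given for other identifiers. These values therefore do not show that members varied more in nucellus. In HG nucellus 41, 95 and 64 members were highest at 18, 28 and 32 DAP, and in EG nucellus 100, 26 and 74 were. Among the 41243 identifiers at that nucellus level these shares were 31.5%, 34.2% and 34.3% in HG and 40.1%, 14.9% and 45.0% in EG. The EG counts were 93, 55 and 52 members without the library that stood apart, against 38.6%, 23.6% and 37.8% of the 41243.

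**Figure D3:**
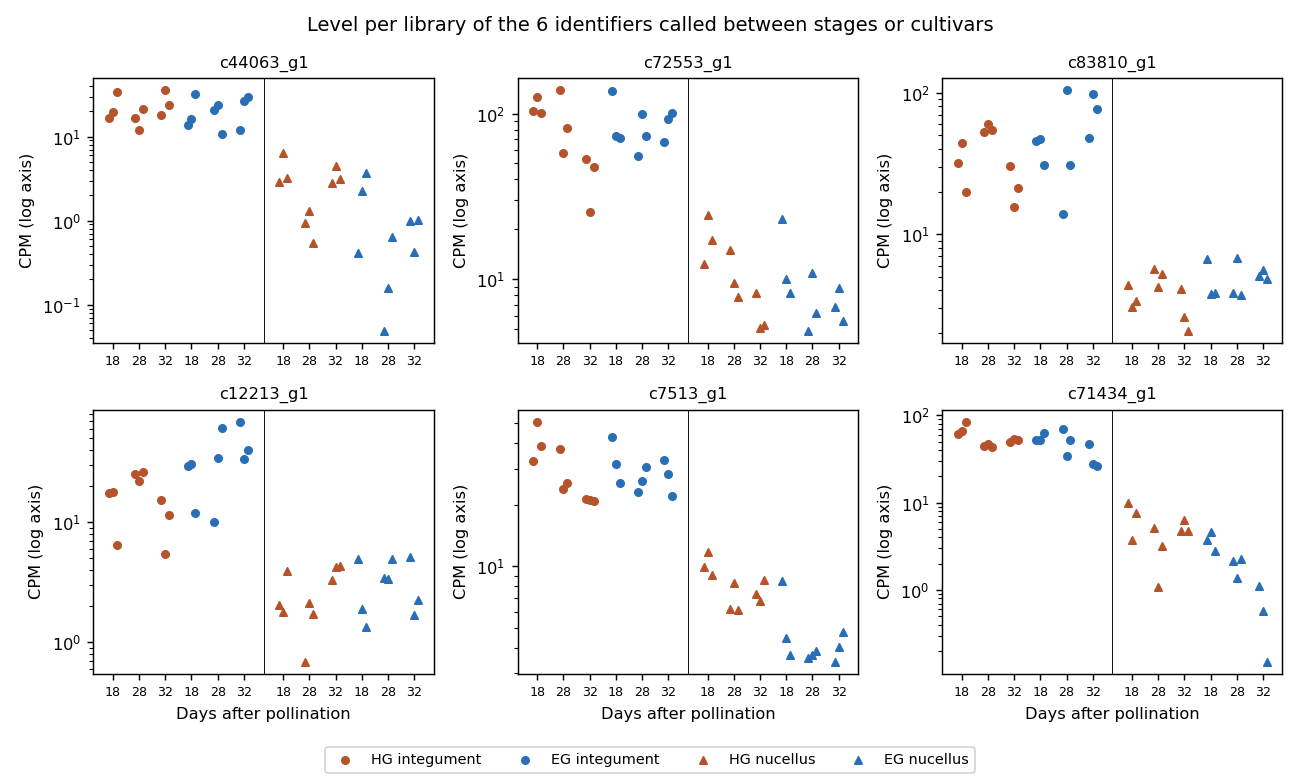
CPM per library on a log axis for the 6 identifiers called between stages or cultivars, integument left of the line (circles) and nucellus right of it (triangles), HG in brown and EG in blue, by days after pollination. In nucellus c7513_g1 lies between 6.12 and 11.8 CPM in HG and between 3.41 and 8.52 CPM in EG, and c71434_g1 lies between 4.70 and 6.38 CPM in HG and between 0.151 and 1.10 CPM in EG at 32 DAP.

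Cultivars were compared in the integument next. Over the 3 stages together edgeR called 0 members and 0% of all identifiers. At an unadjusted p under 0.05, 21 members were higher and 6 lower in HG, against 4.93% and 5.06% of all identifiers, and DESeq2 called 3 members and 0.474% of all. The median log2 difference of members, HG over EG, was 0.14, against -0.02 for all identifiers, and 133 of the 200 were above 0, against 47.6% of all identifiers and 56.7% of those at the members' integument level. By stage the medians were 0.24 at 18 DAP, 0.00 at 28 DAP and 0.22 at 32 DAP. With single libraries left out they lay between 0.17 and 0.32 at 18 DAP, between -0.11 and 0.06 at 28 DAP and between 0.07 and 0.37 at 32 DAP, and that over the stages together between 0.07 and 0.17. That of 28 DAP was -0.02 with RLE factors and with DESeq2, and that of 32 DAP was 0.10 when libraries were scaled by size alone, while all identifiers moved to -0.11. Of the 106 identifiers separated the other way, higher in nucellus at 4 to under 16-fold, 63.2% were above 0 in integument over the stages. Their median was 0.09 over the stages and 0.22 at 32 DAP, so a lean to HG in integument was not particular to the members.

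At 18 DAP edgeR called 0 members in integument, against 0.00698% of all identifiers. There 8 members were higher and none lower in HG at an unadjusted p under 0.05, against 3.78% and 5.1%, and DESeq2 called 0 members and 0.205% of all. At 28 DAP edgeR called 0 members and 0% of all identifiers, with 12 higher and 10 lower in HG at an unadjusted p under 0.05, against 2.34% and 4.36%. DESeq2 called 0 members there and 0.0661% of all. A joint test asked whether the cultivar difference in integument changed over the stages. With edgeR it called 0 members and 0.378% of all identifiers, and with DESeq2 3 members and 2.28%. Members with an unadjusted p under 0.05 in this joint test can owe it to 28 DAP alone. Among them the HG over EG difference was larger at 32 than at 18 DAP in 20 and smaller in 6, against 8.22% and 3.55% of all identifiers.

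At 32 DAP 2 members were lower in HG integument than in EG integument, c83810_g1 and c12213_g1. Of all identifiers 1.02% were called in either direction and 0.124% lower in HG, and DESeq2 called 13 members and 3.63% of all. At an unadjusted p under 0.05, 28 members were higher and 10 lower in HG, against 7.8% and 5.15%. c83810_g1 had 30.1, 15.5 and 21.1 CPM in HG integument at 32 DAP, against 48.0, 98.6 and 77.2 CPM in EG integument. The groups did not overlap, and the log2 fold change was -1.63 (SE 0.41, edgeR, adjusted p = 0.0441). At 28 DAP it had 52.9, 60.0 and 54.4 CPM in HG integument, inside the EG range of 13.8 to 104 CPM, and at 18 DAP the cultivars also overlapped.

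c12213_g1 had 15.2, 5.42 and 11.5 CPM in HG integument at 32 DAP, against 69.2, 33.4 and 39.9 CPM in EG integument, again without overlap (log2 fold change -2.06, SE 0.52, edgeR, adjusted p = 0.0478). At 28 DAP it had 25.2, 22.1 and 26.1 CPM in HG integument, against 10.1, 34.3 and 61.0 CPM in EG integument, which overlapped. The call of c83810_g1 was lost without HG replicate 2 (adjusted p = 0.361), HG replicate 3 (0.115), EG replicate 2 (0.273) or EG replicate 3 (0.223) of 32 DAP integument. That of c12213_g1 was lost without HG replicate 2 (0.388), HG replicate 3 (0.107), or any of EG replicates 1, 2 and 3 (0.114, 0.179 and 0.198). Both were also lost with libraries scaled by size alone, at 0.0521 for c83810_g1 and 0.0579 for c12213_g1, and without the filter on low counts, at 0.0516 and 0.0897. With the replicate number as a block c12213_g1 was lost as well (0.0551). EG replicates 2 and 3 of 32 DAP were the most alike libraries of any group in both tissues, with a chi-square per degree of freedom of 7.83 in integument and 9.90 in nucellus, against 13.97 or more in all other pairs.

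In nucellus most of the 200 identifiers had higher values in HG than in EG, while 1 member passed the test over the stages together and another at 32 DAP. Averaged over the stages, 150 of the 200 identifiers had a log2 difference above 0, HG over EG, against 48.3% of all identifiers tested and 48.9% of those at the members' nucellus level. The median was 0.31 (quartiles 0.03 and 0.56), against -0.01 for all identifiers, and 0.40 against 0.08 when libraries were scaled by size alone. With single libraries left out the median lay between 0.28 and 0.39. Without EG nucellus 28 DAP replicate 1 it was 0.30, and 144 members and 48.6% of all identifiers were above 0. Among the members 60 were higher and 7 lower in HG nucellus at an unadjusted p under 0.05, against 5.37% and 5.24% of all identifiers. Together these were 33.5% of members, 10.6% of all identifiers and 10.8% of those at the members' nucellus level. Without EG nucellus 28 DAP replicate 1, 62 were higher and 7 lower, against 6.36% and 5.14% of all identifiers, and edgeR called 4 members and 0.0946% of all. At the adjusted threshold edgeR called 1 member, higher in HG, and 0.0157% of all identifiers in either direction, or 0.014% higher in HG. DESeq2 called 9 members, all 9 higher in HG, and 0.67% of all identifiers.

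**Figure D4:**
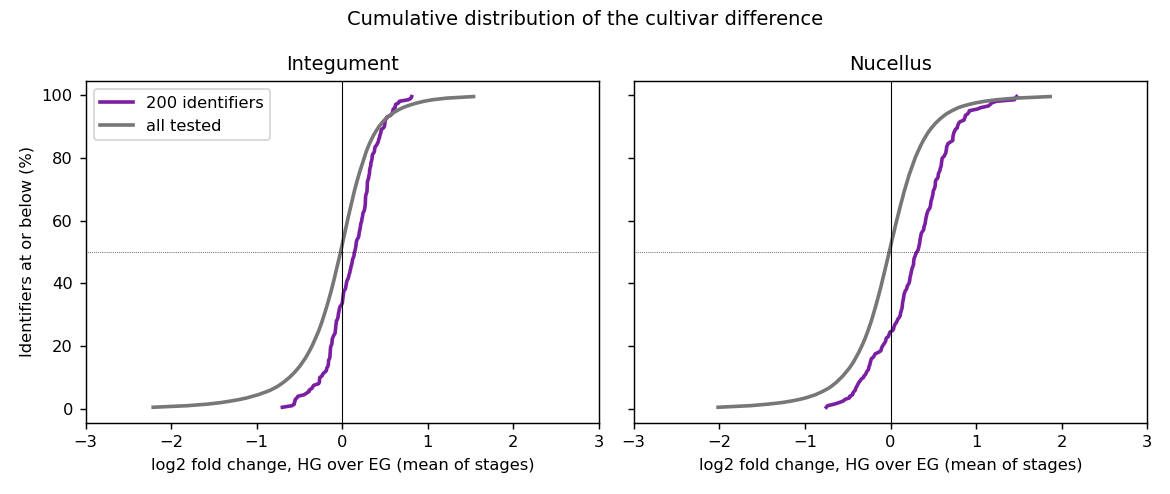
Cumulative share of identifiers (vertical axis, percent) at or below a given log2 fold change of HG over EG, mean of the 3 stages (horizontal axis), in integument (left) and nucellus (right), for the 200 identifiers (purple) and for all 57344 identifiers tested (grey). The purple line lies right of the grey one over most of its range, with medians of 0.14 against -0.02 in integument and 0.31 against -0.01 in nucellus.

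Signs were counted over stages and tissues. In nucellus 58 members were higher in HG at all 3 stages and 14 lower at all 3, which is 29.0% and 7.0% of members against 12.3% and 12.3% of all identifiers and 12.8% and 12.6% of those at the members' nucellus level. In integument 44 were higher and 11 lower in HG at all 3 stages, 22.0% and 5.5% against 11.2% and 13.2% of all identifiers and 14.7% and 9.15% of those at the members' integument level. Averaged over stages, 108 members were higher in HG in both tissues and 25 lower in both, 54.0% and 12.5% of members against 30.7% and 34.8% of all identifiers. Those shares were 39.7% and 31.0% at the members' integument level and 32.3% and 34.2% at their nucellus level. A further 42 were higher in HG in nucellus and lower in integument, and 25 the reverse. These are counts of signs, nearly all of differences that did not pass the test, and same-numbered libraries of both tissues deviated together, so the tissues are not separate evidence. Leaving out EG nucellus 28 DAP replicate 1, 61 members were higher and 18 lower in HG nucellus at all 3 stages, and 100 were higher and 32 lower in HG in both tissues. The shares of all identifiers were then 14.0% and 13.5%, and 29.8% and 36.9%.

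By stage the nucellus medians were 0.11 at 18 DAP, 0.40 at 28 DAP and 0.47 at 32 DAP, against -0.02, -0.03 and 0.04 for all identifiers. The value at 28 DAP was 0.31 without EG nucellus 28 DAP replicate 1, and 0.61 against 0.20 for all identifiers when libraries were scaled by size alone. At 18 DAP edgeR called 0 members and 0.00174% of all identifiers, with 14 higher and 11 lower in HG at an unadjusted p under 0.05, against 3.52% and 3.99%. DESeq2 called 0 members there and 0.0303% of all. At 28 DAP edgeR called 0 members and 0% of all identifiers, with 51 higher and 8 lower at an unadjusted p under 0.05, against 4.85% and 7.51%. Without that library these were 32 and 4 members, against 2.86% and 3.16%. DESeq2 called 8 members there and 1.07% of all. At 32 DAP edgeR called 1 member, higher in HG, and 0.0541% of all identifiers in either direction, or 0.0506% higher in HG. There 44 members were higher and 5 lower at an unadjusted p under 0.05, against 5.94% and 3.59%, and DESeq2 called 5 members and 0.872% of all. Whether the nucellus difference changed between stages was not tested.

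c7513_g1 was higher in HG nucellus over the stages together. It had 9.95, 11.8 and 9.07 CPM in HG nucellus at 18 DAP, against 8.52, 4.46 and 3.67 CPM in EG nucellus. At 28 DAP it had 6.20, 8.28 and 6.12 CPM in HG nucellus, against 3.55, 3.68 and 3.87 CPM in EG nucellus. At 32 DAP it had 7.30, 6.78 and 8.55 CPM in HG nucellus, against 3.41, 4.02 and 4.78 CPM in EG nucellus. Every HG library was above every EG library of its stage, by a small margin at 18 DAP, and the log2 fold change was 0.78 (SE 0.14, edgeR, adjusted p = 0.0389). In integument the cultivars overlapped at every stage but 32 DAP, where 21.3, 21.1 and 20.9 CPM in HG stood against 33.2, 28.4 and 22.2 CPM in EG. The call was lost, at adjusted p from 0.053 to 0.101, without any of 12 nucellus libraries. These were the 3 HG libraries and EG replicates 2 and 3 of 18 DAP, HG replicate 2 and EG replicate 2 of 28 DAP, and HG replicates 2 and 3 and the 3 EG libraries of 32 DAP. It was also lost with the replicate number as a block (0.0653).

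c71434_g1 was higher in HG nucellus at 32 DAP, with 4.74, 6.38 and 4.70 CPM in HG, against 1.10, 0.581 and 0.151 CPM in EG. The log2 fold change was 3.13 (SE 0.51, edgeR, adjusted p = 0.0259). At 18 DAP it had 9.82, 3.71 and 7.72 CPM in HG nucellus, against 3.74, 4.63 and 2.77 CPM in EG nucellus, and at 28 DAP 5.13, 1.07 and 3.17 CPM, against 2.17, 1.39 and 2.25 CPM. The cultivars overlapped at both of these stages and were apart at 32 DAP. The integument values at 32 DAP were 49.5, 53.4 and 52.7 CPM in HG, against 47.1, 27.5 and 26.0 CPM in EG. The call was lost without HG replicate 2 (adjusted p = 0.175), HG replicate 3 (0.0708) or any of EG replicates 1, 2 and 3 (0.0575, 0.231 and 0.405) of 32 DAP. EG replicates 2 and 3, with the lowest values there, are the most alike nucellus pair named above (chi-square of 9.90 per degree of freedom).

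Strongly integument-preferring identifiers are set beside the members in nucellus. The 200 most abundant of the 276 separated identifiers at 16-fold or more had a median of 1.66% to 3.74% of their own integument mean in HG nucellus libraries and 0.248% to 2.79% in EG nucellus libraries, with means of 2.41% and 1.70% (1.89% in EG without replicate 1 of 28 DAP). Their summed share of counts was 0.0146% to 0.0217% in HG nucellus and 0.00793% to 0.0188% in EG nucellus, and none of the 200 was at 0 counts in all HG or all EG nucellus libraries. Of these, 136 had a nucellus log2 difference above 0, with a median of 0.37, against 48.3% and a median of -0.01 for all identifiers, and 1 was called, higher in HG. In integument 98 of them were above 0, with a median of -0.01 over the stages and of -0.25 at 32 DAP. The moderately preferring members had a median of 12.2% to 16.2% of their integument mean in HG nucellus libraries and 4.28% to 15.4% in EG nucellus libraries, with means of 14.3% and 11.1% (11.9% without that library). For both sets the integument mean is that of all 18 integument libraries of both cultivars. The percentages are therefore not proportions of nucellus to integument within a cultivar. Of the 106 identifiers higher in nucellus at 4 to under 16-fold, 60.4% had a nucellus log2 difference above 0, HG over EG. Their median was 0.07 over the stages, and 0.13, -0.06 and 0.21 at 18, 28 and 32 DAP. The part of integument cells or integument RNA in the nucellus captures in the cultivar difference was not tested.

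Within groups the 200 identifiers did not vary as a single block. The deviations of log2(CPM + 1) from each group's mean were examined over the 18 integument libraries, after the values had been seen and as a description only. Pairs of members had a median correlation of 0.08, with 18.6% of 19900 pairs at 0.5 or above and 11.1% at -0.5 or below. The points share a library and its depth. The leading axis held 45.0% of the members' variance, and 19 members correlated with it at 0.8 or above and 21 at -0.8 or below.

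The opposed subsets crossed over between libraries in the groups that follow, a spread that the choice by correlation with the axis fixes and that is given as a description. In EG integument at 28 DAP the 19 members summed to 1257, 385 and 678 CPM in replicates 1, 2 and 3, and the 21 members to 467, 1354 and 905 CPM in the same libraries. In HG integument at 32 DAP the 19 summed to 622, 1470 and 766 CPM and the 21 to 929, 406 and 751 CPM. In both groups the library with the highest first sum had the lowest second sum. HG integument at 28 DAP was otherwise: replicate 1 had both the highest first sum, 531 CPM against 461 and 462, and the highest second sum, 1382 CPM against 915 and 1040. Libraries of a group differed by up to 3.27-fold in the first sum and up to 2.90-fold in the second.

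Single members show the same crossing. c110758_g1, at the end of the first subset, had 58.5, 10.7 and 22.4 CPM in EG integument at 28 DAP, and 27.6, 90.1 and 29.8 CPM in HG integument at 32 DAP. c123466_g1 and c89839_g1, in the second subset, had the highest correlation of any pair of members, 0.998 over the 18 libraries. c123466_g1 had 31.8, 118 and 101 CPM in EG integument at 28 DAP, and c89839_g1 had 29.1, 118 and 97.9 CPM in the same libraries. Their near-equal values in every library were not traced to sequence, so whether reads of near-identical copies are split between them was not tested. The axis was not particular to the members: the other 17280 identifiers at that integument level had a leading axis with 51.5% of their variance, and the correlation of both axes over the 18 libraries was 0.993. c83810_g1 and c12213_g1, the pair called between cultivars at 32 DAP, correlated with the axis at -0.87 and -0.70, and HG integument 32 DAP replicate 2 had the highest axis score of those 6 libraries. The part of this within-group variation in their calls was not tested.

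**Figure D5:**
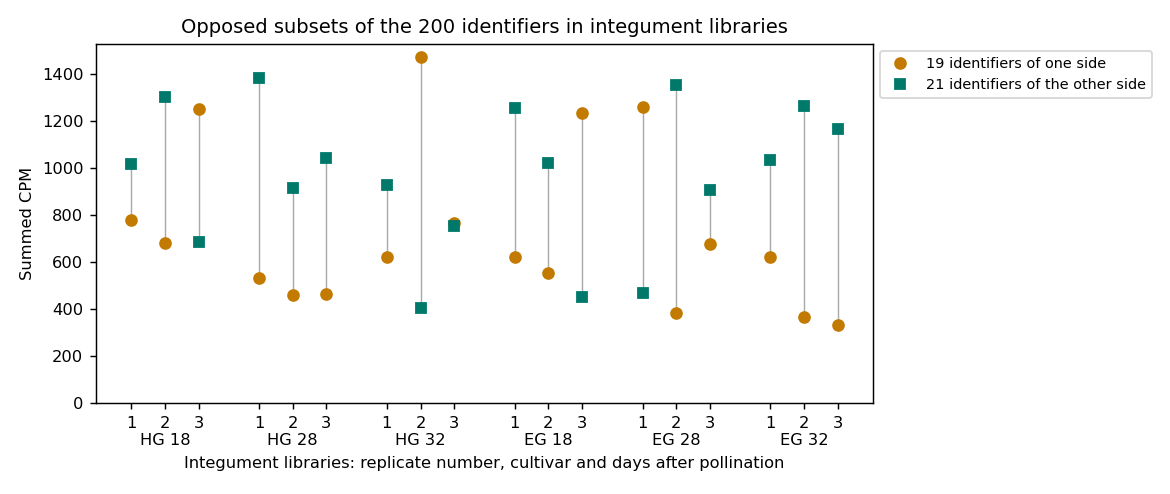
Summed CPM of the 19 members (orange circles) and the 21 members (green squares) that correlate with the leading within-group axis at 0.8 or above and at -0.8 or below, in each of the 18 integument libraries, by replicate number, cultivar and days after pollination. Grey lines join both sums of a library: in HG at 32 DAP the 19 members sum to 1470 CPM and the 21 members to 406 CPM in replicate 2, while the order is the other way in replicate 1, with 622 and 929 CPM.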

How the data were processed

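RNA sequencing of laser-captured ponkan integument and nucellus gave 36 libraries in 12 groups of 3. The deposited tables hold read counts for each identifier, used as they are, and FPKM values computed by the authors, used for levels per length, for implied lengths and for an alternative form of the selection. The tools named in the submitters' processing notes are RSEM, Bowtie2, cutadapt and DESeq. The sources used here give neither their versions, roles and settings nor the genome or assembly and the strand setting, nor which of the 2 sequencer models named in the labels read which library. The table has far more identifiers than is usual for plant genes, so a gene may be split over identifiers and similar copies may share reads. The RNA was amplified and the labels name no molecular identifiers, so counts may not stand for single molecules.

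CPM was computed from a library's total count. Tests used edgeR 4.0.16 (R 4.3.3), quasi-likelihood with robust dispersion and TMM factors, on 57344 identifiers kept by filterByExpr (minimum count 10, minimum total 15), which hold 99.9% of all counts. A single model with a mean for each of the 12 groups had 24 residual degrees of freedom and a common biological coefficient of variation of 0.439. The p-values were adjusted by the Benjamini-Hochberg method over all 57344 identifiers, with a threshold of 0.05, and all 200 members passed the filter. The tissue contrast called 200 members and 35.5% of all identifiers, and nothing is read from it since it chose the members. A log2 fold change is the first named group over the second, on the TMM scale, and its SE is its size over the square root of F. Alternatives were DESeq2 1.42.0, RLE factors (median of ratios), library size alone, no filter, the replicate number as a block, and leaving out single libraries. The script was tested on simulated data. The replicate numbers were not taken to pair samples in the main tests, since not every same-numbered pair of libraries deviated together. Same-numbered tissues of a cultivar and stage did so in 17 of 18 pairs (correlation over 0.1, median 0.28), and their scores on the leading within-group axis correlated at 0.84, with the same sign in 16 of 18. They may share material, so results in both tissues are not separate evidence. For the tissue ratio the unpaired model leaves that shared part in the spread, so its tests may miss differences. A fit with same-numbered tissues of a cultivar and stage paired was run as an alternative and is given in the last section. Each library was counted once, since even the most alike pair of a group had a chi-square of 7.83 per degree of freedom. Such a value can also come from separate amplifications of the same capture, so it does not show that libraries are independent.

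Members and comparison lists were chosen with earlier results of these data known. Named identifiers are, per comparison, at most 2 higher and 2 lower among those called, with the largest change and without overlap where such exist, and the 2 with the highest mean integument CPM, the highest mean integument FPKM, the lowest and the highest coefficient of variation in integument. c110758_g1, c123466_g1 and c89839_g1 were named after their values were seen.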

Additional observations from a re-analysis of the deposited data

How the results depend on the processing

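Of 370 alternative values of counts and sums, 303 stayed within 1.5 times the main value, or within 1 SD for sums, and no sum moved. Many of these could hardly move. A count of 0 in both fits was scored as unchanged, and leaving out 1 of 18 libraries shifts a mean by much less than 1 SD. The 303 are therefore no measure of stability. With DESeq2 the members called were 2 (integument, 32 against 18 DAP), 11, 3 and 6 (nucellus, 28 against 18, 32 against 28 and 32 against 18 DAP), 3 and 13 (integument, HG against EG, mean of stages and 32 DAP), 9, 8 and 5 (nucellus, HG against EG, mean of stages, 28 and 32 DAP) and 3 (integument, change of the cultivar difference over the stages). The shares of all identifiers with DESeq2 stand in the text above, and here the share under the same setting follows each count. With library size alone they were 0, 0.0488% (nucellus, 32 against 18 DAP), 0, 0.853% (integument, HG against EG, 32 DAP), 3, 0.0192% and 3, 0.0994% (nucellus, HG against EG, mean of stages and 32 DAP). Without the filter they were 2, 0.0594%, 0, 0.348% and 3, 0.0202% for the first 3 of these. With the replicate number as a block they were 1, 0.889% (integument, HG against EG, 32 DAP), 0, 0.00872% and 2, 0.0593% (nucellus, HG against EG, mean of stages and 32 DAP). With same-numbered tissues of a cultivar and stage paired as a replicate block, 0 members were called for both changes of the tissue ratio. The share of all identifiers under that setting is not given here, so nothing is read from these counts. RLE factors changed no count. Same-numbered integument and nucellus libraries deviated together in 17 of 18 pairs (correlation over 0.1, lowest 0.05), HG and EG in 5 of 18 and stages in 8 of 36. Leaving out single libraries gave 0 to 7 members (nucellus, 28 against 18 DAP), 0 to 5 (nucellus, 32 against 18 DAP), 0 to 1 and 0 to 6 (integument, HG against EG, mean of stages and 32 DAP), 0 to 4, 0 to 5 and 0 to 3 (nucellus, HG against EG, mean of stages, 28 and 32 DAP), 0 to 5 (integument, change of the cultivar difference) and 0 in the other comparisons. The highest counts came without EG nucellus 28 DAP replicate 3 (7, 0.58%), EG nucellus 28 DAP replicate 1 (5, 0.226%), EG integument 28 DAP replicate 1 (1, 0.177%), HG integument 32 DAP replicate 1 (6, 2.22%), EG nucellus 28 DAP replicate 1 (4, 0.0946%), EG nucellus 28 DAP replicate 2 (5, 0.633%), HG nucellus 32 DAP replicate 1 (3, 0.448%) and EG integument 28 DAP replicate 2 (5, 1.73%), in the same order. Without EG nucellus 28 DAP replicate 1 these were 4, 0.389% (nucellus, 28 against 18 DAP), 5, 0.226% (32 against 18 DAP), 4, 0.0946% (HG against EG, mean of stages) and 3, 0.245% (32 DAP). The cause of these moves was not tested. Of 94 alternative fits of the 6 called members, 48 kept the call and 46 lost it, and all kept the sign. Leaving out single libraries was not run for the tissue contrast. The selection gave 379 identifiers, 417 with TMM factors, 353 without the added constant, 421 with 1 added, 414 from FPKM and 389 without EG nucellus 28 DAP replicate 1 (an alternative chosen after seeing the data, as were the sign, stage and ratio counts without that library and the nucellus-level shares), and 171, 199, 147 and 173 of the 200 members were again among the top 200 under the first 4.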
